A study of Homo sapiens with 4 samples.

Results

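The mechanistic target of rapamycin (mTOR) complexes and their direct regulators were followed through 10 genes. They were chosen by symbol: MTOR, RPTOR, RICTOR, MLST8, TSC1, TSC2, RHEB, RPS6KB1, AKT1 and AKT2. All 10 were present among the 19192 genes counted in each library, and all 10 passed the minimum of 50 reads over both libraries of a kind. The cells were SW480, an established human colorectal adenocarcinoma line, either carrying the genotype label IMP1-/- (knockout-labelled) or wild type. IGF2BP1 is the gene of IMP1, a protein that binds mRNAs. Ribosome-protected fragments (RPF, or footprints, the mRNA pieces covered by ribosomes) and fragmented total RNA were sequenced from both genotypes. This gave 4 libraries, 1 per group, each from 3 pooled culture plates, with no treatment named in the labels. No difference therefore has a replicate check, no p-value is given, and genotype cannot be told apart from clone or culture. A lower level in such a bulk library can come from fewer cells of a kind or from less RNA per cell, and these cannot be told apart.

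mTOR is a protein kinase that works in a pair of complexes. With raptor (RPTOR) it forms mTORC1, which responds to growth factors, amino acids and energy and drives protein synthesis through S6 kinase and the 4E-BP proteins. With rictor (RICTOR) it forms mTORC2, which phosphorylates AKT. MLST8 is a subunit of both. AKT, activated below PI3-kinase, inhibits the TSC1-TSC2 complex, which in turn keeps the small GTPase RHEB, the direct activator of mTORC1, in its inactive state. In intestinal epithelium the pathway is known for its part in crypt cell growth and regeneration.

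Library totals ranged from 3778316 to 5551479 counts. The wild-type RNA library carries SW840 in its cell line field and SW480 in its source name, and this conflict was not resolved. IGF2BP1 had 571 RNA reads in the knockout-labelled library and 598 in wild type, and 149 footprints in the knockout-labelled library against 285 in wild type. Its RNA change was 0.08 on the log2 scale (95% counting interval -0.08 to 0.25) and its footprint change -0.93 (-1.23 to -0.65), so the counts per gene do not show a loss of the transcript. Of 11 epithelial and intestinal markers, 8 were measured, with 1 called higher and 4 lower in RNA, or 62.5% against 34% of all genes at 1.5-fold or more, and 2 higher and 1 lower in footprints, or 37.5% against 39.1%. They summed to 5876 CPM (counts scaled to 1000000 per library) in knockout-labelled RNA and 8486 in wild-type RNA. In raw footprint counts they summed to 78019 in the knockout-labelled library and 96522 in wild type. Most of the RNA sums came from KRT8 and KRT18, at 1860 and 3117 CPM in knockout-labelled RNA and 2913 and 4714 in wild-type RNA. The genes called lower in RNA were KRT8, KRT18, VIL1 and CDX2, the last with 103 reads in the knockout-labelled library and 268 in wild type. EPCAM had 1143 RNA reads in the knockout-labelled library and 1081 in wild type. KRT20 was at 0 in all 4 libraries, and VIL1 had 2 RNA reads in the knockout-labelled library and 160 in wild type, and 0 footprints against 335 in wild type. CDH1 had 286 RNA reads in the knockout-labelled library and 83 in wild type, and 275 footprints against 88 in wild type, and CLDN4 had 1249 footprints in the knockout-labelled library and 507 in wild type. The 16 markers of fibroblasts, leukocytes, endothelium and neurons summed to 33.7 CPM in knockout-labelled RNA and 42.9 in wild-type RNA, and to 37.3 CPM in knockout-labelled footprints and 26.2 in wild-type footprints. PTPRC, CD3E and DCN were at 0 in all 4 libraries, and 9 of the 16 were at 0 in knockout-labelled RNA and 6 in wild-type RNA, as were 9 in knockout-labelled footprints and 10 in wild-type footprints. Among those with reads, SNAP25 had 20 RNA reads in the knockout-labelled library and 54 in wild type, and 55 footprints against 36 in wild type. SYT1 had 25 footprints in the knockout-labelled library and 55 in wild type, CDH5 had 30 against 0 in wild type, and VWF had 13 against 0 in wild type. The part of these markers in the results that follow was not tested.

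The bases around the annotated start codon, where ribosomes begin on an mRNA, are shown for MTOR and for the other members called in footprints or TE, with RPTOR beside them as the partner of RICTOR. Each line runs 5′ to 3′ over the last 12 bases of the 5′ UTR and the first 13 coding bases of the transcript listed in the files, from GENCODE release 29 (GRCh38). The capitals mark the start codon.
MTOR: cctcagggcaagATGcttggaaccg
RPTOR: cctcccccactgATGgagtccgaaa
RICTOR: aaacccgtcaatATGgcggcgatcg
TSC2: tcctggtccaccATGgccaaaccaa
RPS6KB1: gggtccgggcccATGaggcgacgaa
AKT1: gcctcgggcaccATGagcgacgtgg
A purine stood at the third base before the start codon in 8 of the 10 genes, the exceptions being RPTOR and RPS6KB1. Over the 18035 genes with an annotated ATG start the share was 85.4%. A G directly after the start codon was present in 4 of the 10 genes (RPTOR, RICTOR, TSC1 and TSC2), against 51% of all genes. These letters describe the annotation and were not tested against the footprints.

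Reads were unevenly spread over the 10 genes. Together they made up 834 CPM of knockout-labelled RNA and 1001 CPM of wild-type RNA. In footprints they made up 561 CPM in the knockout-labelled library and 617 CPM in wild type. AKT1 and RHEB had the most RNA reads in both genotypes, while RHEB and MTOR had the most footprints. The smallest count behind any value was 48, for RPS6KB1 in knockout-labelled footprints.

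**Figure D1:**
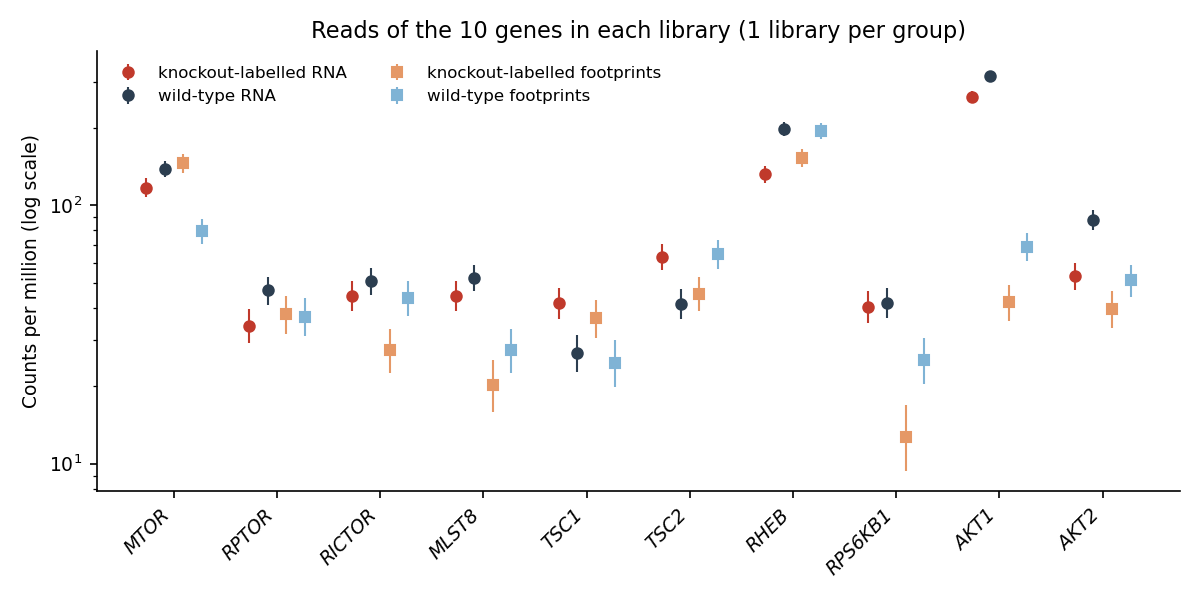
CPM of each gene on a log axis, with 1 point per library (circles, RNA; squares, footprints) and bars giving the exact Poisson 95% counting interval. MTOR footprints are higher in the knockout-labelled library, at 146 CPM against 79.3 in wild type, and RPS6KB1 footprints are lower, at 12.7 against 25.1 in wild type.

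Changes are log2 ratios with the knockout-labelled library on top, after TMM scaling (a trimmed mean of gene-wise ratios). Translational efficiency (TE) is the footprint level over the RNA level, so the TE change is the footprint change minus the RNA change. A gene was called higher or lower at 1.5-fold or more with a 95% counting interval that excluded no change. The intervals cover counting error only, as each group has 1 library. They are too narrow if PCR copies of 1 molecule were counted more than once, and the handling of such copies is not stated. In RNA, 1 of the 10 genes was called higher (TSC1) and 2 lower (AKT2 and RHEB), a share of 30%, where 34% of all 10875 genes measured were called (16.2% higher and 17.8% lower). In footprints 1 was called higher (MTOR) and 3 lower (AKT1, RICTOR and RPS6KB1), or 40% against 39.1% of 9794 genes (19% higher and 20.1% lower). In TE 1 was called higher (MTOR) and 2 lower (TSC2 and RPS6KB1), or 30% against 29.6% of 9598 genes (15.7% higher and 13.9% lower). The 10 genes were thus called about as often as genes at large. At 2-fold or more, 0 of them were called in RNA, where 6.39% of genes were higher and 8.35% lower, and 0 in footprints, where 9% were higher and 9.87% lower. In TE, MTOR was still called higher and TSC2 lower at 2-fold, where 6.46% of genes were called higher and 6.28% lower. The median change of the 10 genes was -0.25 in RNA (-0.01 over all genes), -0.41 in footprints (-0.001 over all genes) and -0.13 in TE (0.03 over all genes).

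**Figure D2:**
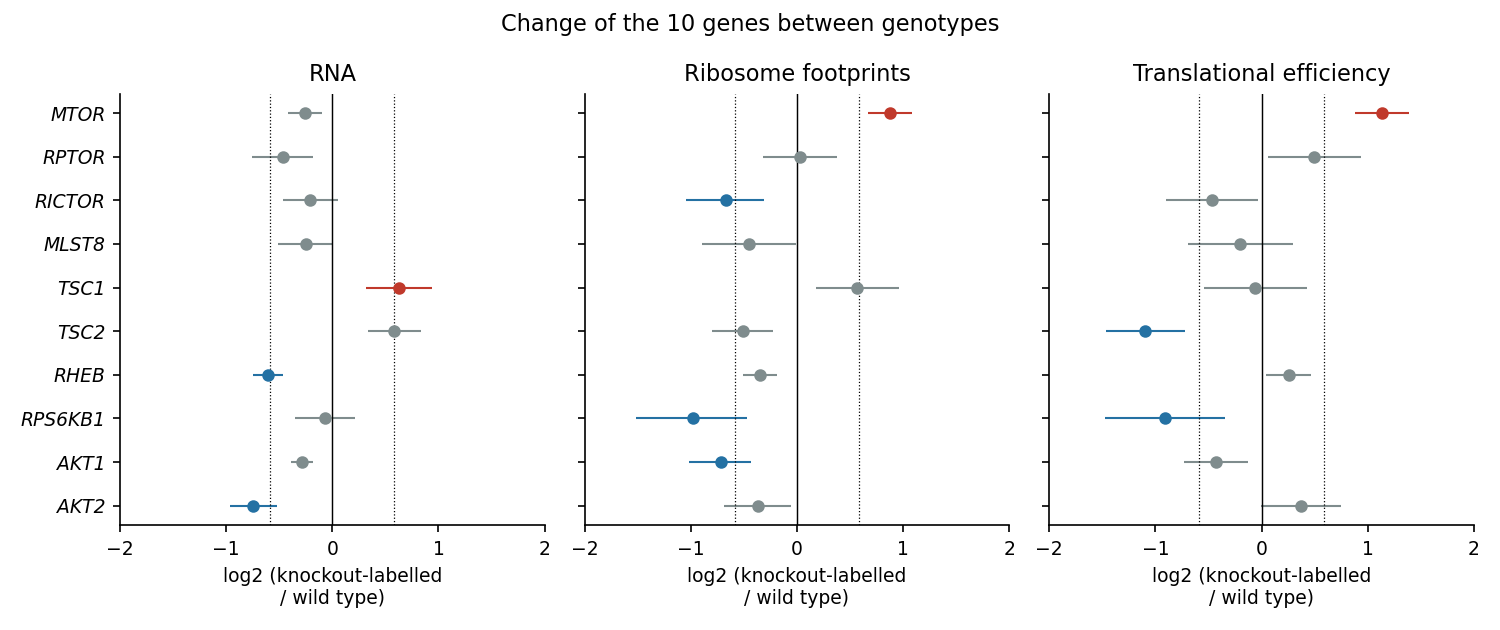
Log2 change of the 10 genes in RNA, footprints and translational efficiency, with 95% counting intervals as bars. Red is called higher, blue called lower and grey neither, and the dotted lines mark 1.5-fold. MTOR stands at 0.88 in footprints and 1.13 in TE, and TSC2 at -1.09 in TE.

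The kinase gene itself was called higher in footprints and in TE, and not called in RNA. MTOR (ENST00000361445, chromosome 1, 11106535 to 11262507, minus strand, GRCh38) has 58 exons and codes for 2549 amino acids. It had 578 RNA reads in the knockout-labelled library and 767 in wild type. It had 551 footprints in the knockout-labelled library against 300 in wild type. The RNA change was -0.26 (-0.42 to -0.10), under the 1.5-fold limit. Footprints were 1.83-fold higher (95% interval 1.59 to 2.12), and TE was 2.19-fold higher (1.84 to 2.62). The TE change lay at percentile 95.1 of all genes measured, and its RNA change at percentile 34.2. None of the 25-base windows of the transcript occurred in a transcript of another gene. The antisense gene MTOR-AS1 shares 89 exonic bases with it, and no source used here states whether the counting used strand.

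The subunits that define the complexes differed in their ratio in footprints, while the interval of their RNA ratio included no change. RPTOR (ENST00000306801, chromosome 17, 80545268 to 80966368, plus strand), the scaffold that brings substrates to mTORC1, had 169 RNA reads in the knockout-labelled library and 260 in wild type. Its footprints numbered 143 in the knockout-labelled library and 140 in wild type. The RNA change of -0.47 (-0.76 to -0.19), the footprint change of 0.03 (-0.32 to 0.38) and the TE change of 0.50 (0.06 to 0.93) were not called. RICTOR (ENST00000357387, chromosome 5, 38937919 to 39074408, minus strand), which directs mTORC2 to AKT, had 220 RNA reads in the knockout-labelled library and 282 in wild type. Its footprints numbered 104 in the knockout-labelled library against 166 in wild type, 1.59-fold lower (log2 -0.67, -1.04 to -0.31). Its TE change of -0.47 (-0.90 to -0.03) fell short of the limit. The ratio of RICTOR to RPTOR footprints was 0.727 in the knockout-labelled library and 1.19 in wild type. This ratio, which needs no scaling between libraries, was 0.614 times the wild-type one (0.438 to 0.861). The same ratio in RNA was 1.30 in the knockout-labelled library and 1.08 in wild type, a log2 difference of 0.26 (-0.11 to 0.64).

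MLST8 (ENST00000565250, chromosome 16, 2205769 to 2209352, plus strand), a small protein bound to the kinase domain in both complexes, was not called in any quantity. It had 220 RNA reads in the knockout-labelled library and 291 in wild type, and 76 footprints in the knockout-labelled library and 104 in wild type. Its footprint change was -0.45 (-0.90 to -0.01) and its TE change -0.20 (-0.69 to 0.30). Its ratio to MTOR was the same in RNA within counting error and not in footprints. The MTOR to MLST8 ratio was 2.63 in knockout-labelled RNA and 2.64 in wild-type RNA. In footprints it was 7.25 in the knockout-labelled library and 2.88 in wild type, 2.51 times as high (1.81 to 3.48).

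TSC1 and TSC2, whose products hamartin and tuberin form the complex that inactivates RHEB, both had changes above 0 in RNA, of which that of TSC1 was called, and footprint changes of opposite sign, neither of them called. TSC2 was called lower in TE. TSC1 (ENST00000440111, chromosome 9, 132891350 to 132928955, minus strand) had 207 RNA reads in the knockout-labelled library and 149 in wild type, 1.54-fold higher (1.24 to 1.92). It had 138 footprints in the knockout-labelled library and 93 in wild type, a change of 0.57 (0.18 to 0.96) that was not called. Its TE change was -0.06 (-0.54 to 0.43). TSC2 (ENST00000219476, chromosome 16, 2047465 to 2088720, plus strand), which carries the GTPase-activating domain, had 312 RNA reads in the knockout-labelled library and 231 in wild type. That change of 0.58 (0.33 to 0.84) missed the limit of 0.585, and was called when libraries were scaled by their totals. It had 172 footprints in the knockout-labelled library and 245 in wild type, a change of -0.51 (-0.80 to -0.22). TSC2 was therefore 2.13-fold lower in TE (log2 -1.09, -1.47 to -0.72), at percentile 5.00 of all genes. The TSC1 to TSC2 footprint ratio was 0.802 in the knockout-labelled library and 0.380 in wild type, 2.11 times as high (1.52 to 2.92). In RNA the ratio was 0.663 in the knockout-labelled library and 0.645 in wild type.

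TSC2 exons overlap genes on the opposite strand, by 402 bases with the DNA glycosylase gene NTHL1 and by 11 bases with PKD1. NTHL1 had 47 RNA reads in the knockout-labelled library and 75 in wild type, and 82 footprints against 93 in wild type. PKD1 had 758 RNA reads in the knockout-labelled library and 754 in wild type, and 64 footprints against 27 in wild type. Their part in the TSC2 counts was not tested. TBC1D7, the third subunit of the TSC complex, had 110 RNA reads in the knockout-labelled library and 44 in wild type. It had 78 footprints in the knockout-labelled library and 31 in wild type, and was called higher in both RNA (1.46, 0.96 to 2.01) and footprints (1.32, 0.71 to 1.98). Of the 3 genes of the complex, TBC1D7 was called in RNA and footprints, TSC1 in RNA and TSC2 in TE.

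**Figure D3:**
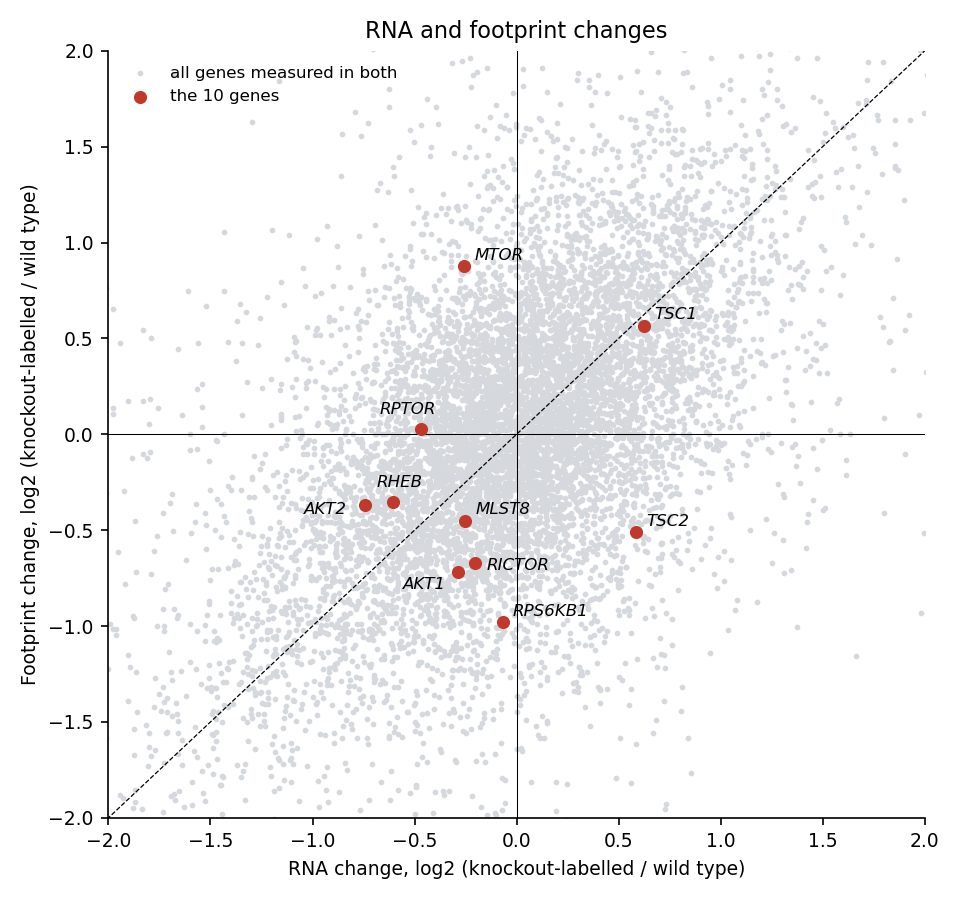
RNA change against footprint change for the 9598 genes measured in both kinds (grey) and the 10 genes (red), on log2 axes cut at 2, which leaves 384 genes outside the plot. On the dashed line both changes are equal. MTOR (-0.26 in RNA, 0.88 in footprints) lies above the line and TSC2 (0.58, -0.51) below it.

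RHEB, the GTPase that binds and activates mTORC1, was lower in RNA. RHEB (ENST00000262187, chromosome 7, 151466012 to 151519924, minus strand) had 650 RNA reads in the knockout-labelled library and 1099 in wild type, 1.52-fold lower (log2 -0.61, -0.75 to -0.47). It had 577 footprints in the knockout-labelled library and 736 in wild type, a change of -0.35 (-0.51 to -0.19), and a TE change of 0.25 (0.04 to 0.46). Neither of these was called. The RHEB to TSC2 ratio in RNA was 2.08 in the knockout-labelled library and 4.76 in wild type, 0.438 times the wild-type ratio (0.360 to 0.533). In footprints it was 3.35 in the knockout-labelled library and 3.00 in wild type, with a ratio of 1.12 (0.893 to 1.40).

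The RHEB counts carry an uncertainty of assignment, because 80.1% of the 25-base windows of its coding sequence also occur in other annotated genes, chiefly the processed pseudogenes RHEBP1 and RHEBP2 on chromosome 10. RHEBP1 (46634911 to 46635466) matches 99.1% of the 552 coding bases and RHEBP2 (47706203 to 47706802) matches 93.8%. Neither pseudogene is listed by its symbol among the genes counted, so no counts of them could be set beside those of RHEB. The longest exact run, of 184 bases, is shared by both, and its first 90 bases (coding bases 170 to 259) show how a footprint of 18 to 34 bases can fail to name 1 source.
RHEB, RHEBP1 and RHEBP2: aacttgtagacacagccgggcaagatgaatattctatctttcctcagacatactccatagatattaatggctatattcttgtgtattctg
No source used here says how reads that map to more than 1 place were treated.

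AKT1 and AKT2 encode paralogous kinases that act between PI3-kinase and TSC2, and AKT1 was called lower in footprints and AKT2 in RNA. AKT1 (ENST00000402615, chromosome 14, 104769352 to 104794528, minus strand) had 1296 RNA reads in the knockout-labelled library and 1759 in wild type, a change of -0.29 (-0.39 to -0.19). It had 159 footprints in the knockout-labelled library and 262 in wild type, 1.65-fold lower (log2 -0.72, -1.01 to -0.43). Its TE change of -0.43 (-0.73 to -0.13) was not called. AKT2 (ENST00000392038, chromosome 19, 40230317 to 40285395, minus strand) had 262 RNA reads in the knockout-labelled library and 488 in wild type, 1.68-fold lower (log2 -0.74, -0.97 to -0.53). It had 150 footprints in the knockout-labelled library and 194 in wild type, a change of -0.37 (-0.69 to -0.06), with a TE change of 0.37 (-0.001 to 0.75). The AKT1 to AKT2 ratio in RNA was 4.95 in the knockout-labelled library and 3.60 in wild type, 1.37 times as high (1.16 to 1.62). In footprints it was 1.06 in the knockout-labelled library and 1.35 in wild type, and the interval of the ratio of ratios, 0.785, included no change (0.588 to 1.05).

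The AKT paralogs can mostly be told apart. In each coding sequence 1.69% of 25-base windows were shared with the other, and the longest shared run was 32 bases, at coding bases 700 to 731 of AKT1. The stretch around it, coding bases 671 to 760 of AKT1 beside the aligned bases of AKT2, is shown with the 9 differing bases in capitals.
AKT1: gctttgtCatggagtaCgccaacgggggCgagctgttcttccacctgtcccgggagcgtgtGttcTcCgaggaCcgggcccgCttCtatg
AKT2: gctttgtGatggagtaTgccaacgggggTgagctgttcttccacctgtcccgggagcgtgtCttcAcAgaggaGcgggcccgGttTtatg
The listed AKT1 transcript has a 5′ UTR of 1481 bases, the longest of the 10, and 660 of its exonic bases overlap the antisense gene AL583722.2.

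RPS6KB1, which encodes the S6 kinase that mTORC1 activates, was called lower in footprints and in TE, on an RNA change whose interval included no change. RPS6KB1 (ENST00000225577, chromosome 17, 59893164 to 59950564, plus strand) had 200 RNA reads in the knockout-labelled library and 233 in wild type, a change of -0.07 (-0.35 to 0.21). It had 48 footprints in the knockout-labelled library and 95 in wild type, 1.97-fold lower (log2 -0.98, -1.52 to -0.47). In TE it was 1.88-fold lower (log2 -0.91, -1.48 to -0.34), at percentile 7.87 of all genes. The paralog RPS6KB2 had 211 RNA reads in the knockout-labelled library and 212 in wild type, but only 7 footprints in the knockout-labelled library and 30 in wild type. That was under the minimum of 50, so no call was made for it. The RPS6KB1 to RPS6KB2 ratio did not differ detectably in RNA (0.863 times wild type, 0.660 to 1.13) or in footprints (2.07 times, 0.865 to 4.93).

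Of the 25-base windows in the RPS6KB1 coding sequence, 53.2% also occur in other annotated genes. The partners with most shared windows were AC087499.2 (chromosome 17, 20716481 to 20737127), annotated as a transcribed unprocessed pseudogene, and the unprocessed pseudogene AC053481.3 (chromosome 17, 62231470 to 62247153). With AC053481.3 an exact run of 144 bases is shared, of which the first 90 (coding bases 477 to 566 of RPS6KB1) are shown for the same reason as in RHEB.
RPS6KB1 and AC053481.3: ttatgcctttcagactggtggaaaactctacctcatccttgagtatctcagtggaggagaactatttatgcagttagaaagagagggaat
The part of reads from these copies in the RPS6KB1 counts was not tested. The overlapping gene AC005702.1 on the same strand shares 149 exonic bases with it.

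Within each genotype, TE was set against the median gene of the same pair of libraries, over 9595 genes with reads in all 4. This TE is CPM over CPM, with no correction for length. Ranks and percentiles between genes hold only if both kinds were counted over the same region, which is not stated. AKT1 had the lowest TE of the 10 in both genotypes, at -2.77 (-3.01 to -2.54) in the knockout-labelled cells and -2.31 (-2.49 to -2.12) in wild type on the log2 scale. These values lay at percentile 1.90 of all genes in the knockout-labelled cells and 2.64 in wild type. MTOR had the highest TE of the 10 in the knockout-labelled cells, at 0.18 (0.02 to 0.35), and was 8th in wild type at -0.91 (-1.11 to -0.72). TSC2 was 6th in the knockout-labelled cells at -0.61 (-0.87 to -0.34), and had the highest TE of the 10 in wild type at 0.53 (0.27 to 0.79). By this ratio the first place belonged to MTOR in the knockout-labelled cells and to TSC2 in wild type. The MTOR interval in the knockout-labelled cells overlapped that of RHEB and that of RPTOR at 0.01 (-0.31 to 0.33). In wild type the MTOR interval overlapped those of RPTOR, RPS6KB1, AKT2 and MLST8, while that of TSC2 overlapped none of the others. RHEB was second in both, at 0.08 (-0.08 to 0.24) in the knockout-labelled cells and -0.14 (-0.27 to -0.002) in wild type. The order was different with footprint CPM per coding kilobase over RNA CPM per transcript kilobase. RHEB then stood above MTOR in the knockout-labelled cells (277 over 63.5 against 19.1 over 13.5). So did AKT2 (27.51 over 10.02), TSC1 (10.46 over 4.959) and RPTOR (9.45 over 5.347). In wild type RHEB stood above TSC2 (352 over 95.4 against 11.95 over 6.75). TSC1 (7.04 over 3.171), AKT2 (35.54 over 16.59) and RPS6KB1 (15.94 over 7.809) did so too. The first places of MTOR and TSC2 thus held only without the correction for length. In the uncorrected TE, RPS6KB1 stood at -1.81 in the knockout-labelled cells and -0.85 in wild type. MLST8 stood at -1.28 in the knockout-labelled cells and -1.04 in wild type.

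**Figure D4:**
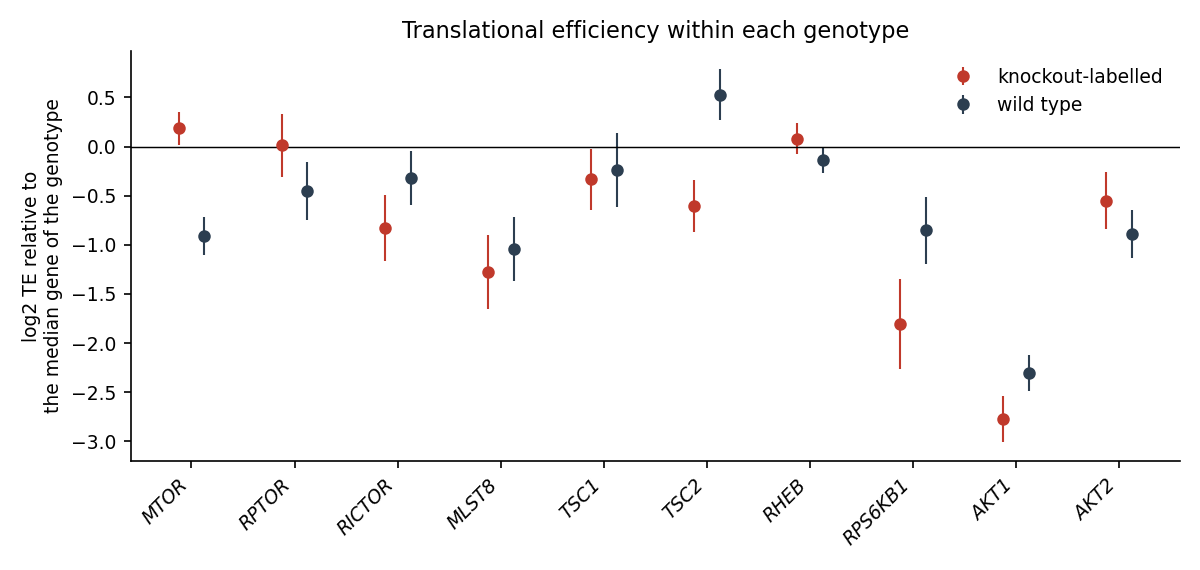
Translational efficiency of each gene relative to the median gene of the same genotype (log2; bars, 95% counting interval), knockout-labelled left of wild type. Values are not corrected for length. MTOR and TSC2 differ most between the genotypes, and AKT1 is lowest in both, at -2.77 in the knockout-labelled cells and -2.31 in wild type.

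Levels were compared between genes as CPM per kilobase, over the coding sequence for footprints and over the listed transcript for RNA. RHEB footprints were densest in both genotypes, at 277 in the knockout-labelled library (254 to 300.2) and 352 in wild type (328 to 379). AKT1 came next at 29.2 (24.9 to 34.1) in the knockout-labelled library and 48.1 (42.4 to 54.3) in wild type. AKT2 followed at 27.5 (23.3 to 32.3) in the knockout-labelled library, within the counting error of AKT1, and at 35.5 (30.7 to 40.9) in wild type, with an interval that does not reach that of AKT1. MTOR was 5th in the knockout-labelled library at 19.1 (17.5 to 20.7), not separable from MLST8 at 20.6 (16.2 to 25.7), and 7th in wild type at 10.4 (9.23 to 11.6). RICTOR was last in the knockout-labelled library at 5.37 (4.39 to 6.51), with an interval that overlapped that of RPS6KB1 at 8.07 (5.95 to 10.7). TSC1 was last in wild type at 7.04 (5.68 to 8.62), with an interval that overlapped those of RICTOR and RPTOR. In wild type the intervals of TSC2, MTOR, RPTOR and RICTOR, in falling order, each overlapped that of the next gene in the order. In RNA, AKT1 was densest in the knockout-labelled library at 67.2 (63.5 to 70.9), with RHEB at 63.5 (58.7 to 68.6) within its counting error. In wild type RHEB was densest at 95.4 (89.8 to 101), with AKT1 at 81.0 (77.2 to 84.8).

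Beyond these genes, 85 further pathway genes were listed, of which 82 were matched by symbol. In RNA 9 of 73 measured were called higher and 7 lower, or 21.9% against 34% of all genes. In footprints 9 of 70 were called higher and 15 lower, or 34.3% against 39.1%. In TE 8 of 68 were called higher and 14 lower, or 32.4% against 29.6%. The medians were -0.09 in RNA, -0.002 in footprints and -0.05 in TE. The share called was below that of all genes in RNA and in footprints and slightly above it in TE, with calls in both directions in each quantity.

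Among 9 other subunits and assembly factors, 8 were measured in RNA, with 2 called higher and 3 lower, or 62.5% against 34% of all genes, and a median of -0.39. In footprints 2 of 7 were called higher and 2 lower, or 57.1% against 39.1%, with a median of -0.14. In TE 1 of 7 was called higher and 2 lower, or 42.9% against 29.6%, with a median of -0.15. The list also holds TBC1D7, the TSC complex subunit given above, which is among the genes called higher in RNA and in footprints. TELO2, part of the TTT complex with TTI1 and TTI2 that helps fold mTOR, had 38 RNA reads in the knockout-labelled library and 160 in wild type. Its footprints numbered 34 in the knockout-labelled library and 177 in wild type, a change of -2.36 (-2.96 to -1.84). Its partner TTI2 went the other way, with 235 footprints in the knockout-labelled library and 63 in wild type, and a TE change of 1.20 (0.61 to 1.79). TTI1, the third of them, was not called, at -0.22 in RNA and 0.06 in footprints. The mTORC2 subunit MAPKAP1 (SIN1) had 215 footprints in the knockout-labelled library and 285 in wild type, with a TE change of -0.74 (-1.04 to -0.44). PRR5L, which binds mTORC2, had 43 footprints in the knockout-labelled library and 151 in wild type, and was called lower in RNA, footprints and TE. Its relative PRR5 had 29 RNA reads in the knockout-labelled library and 61 in wild type and was called lower in RNA (-0.91, -1.61 to -0.26). AKT1S1 (PRAS40), an inhibitory partner of mTORC1, was not called, at -0.55 in RNA and -0.14 in footprints. DEPTOR, an inhibitor of both complexes, was under the minimum, with 5 RNA reads in the knockout-labelled library and 20 in wild type, and 35 footprints against 10 in wild type.

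Of the growth factor and PI3-kinase list, 1 of 14 genes measured in RNA was called higher and 1 lower, or 14.3% against 34% of all genes. In both footprints and TE 0 of 13 were called higher and 2 lower, or 15.4%, against 39.1% of all genes in footprints and 29.6% in TE. The medians were -0.12 in RNA, -0.09 in footprints and -0.07 in TE. PIK3R2, a regulatory subunit of PI3-kinase, had 249 RNA reads in the knockout-labelled library and 163 in wild type, and 64 footprints against 99 in wild type. It was called higher in RNA (0.76) and lower in footprints (-0.63) and in TE (-1.39, -1.92 to -0.85). The insulin receptor substrate IRS1 was called lower in RNA, with 63 reads in the knockout-labelled library and 150 in wild type. PDPK1, the kinase that phosphorylates AKT and S6 kinase in their activation loops, had 59 footprints in the knockout-labelled library and 98 in wild type, a change of -0.73 (-1.22 to -0.25). PIK3CD was called lower in TE (-1.11, -1.98 to -0.24) on 23 footprints in the knockout-labelled library and 36 in wild type.

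In the amino acid branch 5 of 23 genes measured in footprints were called higher and 5 lower, or 43.5% against 39.1% of all genes. In RNA 3 of 23 were called higher and 1 lower, or 17.4% against 34%, and in TE 3 of 22 higher and 4 lower, or 31.8% against 29.6%. The medians were 0.05 in footprints, -0.12 in RNA and 0.17 in TE. The Ragulator subunits, which anchor the Rag GTPases on the lysosome, included LAMTOR3 with 106 footprints in the knockout-labelled library and 35 in wild type (1.58, 1.03 to 2.19). LAMTOR1 was also called higher in footprints (0.59, 0.18 to 1.02) and both were called higher in TE, at 1.62 for LAMTOR3 and 0.98 for LAMTOR1. The Rag GTPases RRAGC and RRAGD were called lower in footprints and TE. RRAGD had 40 footprints in the knockout-labelled library and 118 in wild type, and RRAGC had 25 against 54 in wild type. RRAGA, with 714 footprints in the knockout-labelled library and 610 in wild type, was not called. SESN2, a leucine sensor that inhibits mTORC1 through GATOR2, was called higher in RNA (0.72, 0.44 to 1.00) and footprints (0.97, 0.65 to 1.31). The GATOR2 subunits WDR24 and SEC13 were called higher in RNA and footprints, and MIOS lower in footprints (-0.64) and TE (-0.79). ITFG2, a subunit of KICSTOR, had 38 RNA reads in the knockout-labelled library and 106 in wild type and was called lower in RNA and footprints.

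In the energy branch 9 genes were measured, with 1 called higher and 1 lower in RNA, or 22.2% against 34% of all genes. In footprints 0 were called higher and 2 lower, or 22.2% against 39.1%, and in TE 2 higher and 2 lower, or 44.4% against 29.6%. The medians were -0.17 in RNA, -0.11 in footprints and -0.19 in TE, and the AMPK subunits were called in both directions. PRKAB2 had 213 RNA reads in the knockout-labelled library and 108 in wild type and was called higher in RNA (1.13, 0.79 to 1.48) and lower in TE (-1.23). PRKAB1 had 52 RNA reads in the knockout-labelled library and 117 in wild type and was called lower in RNA and footprints. PRKAA2 and PRKAG1 were called higher in TE, at 0.71 (0.21 to 1.21) and 0.74 (0.40 to 1.08). CAB39, the scaffold of LKB1, had 165 footprints in the knockout-labelled library and 317 in wild type, on 181 RNA reads in the knockout-labelled library and 203 in wild type, and was called lower in footprints and TE.

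Among 22 mTOR substrates and effectors, 2 of 18 measured in footprints were called higher and 4 lower, or 33.3% against 39.1% of all genes. In TE 2 of 17 were called higher and 4 lower, or 35.3% against 29.6%, and in RNA 2 of 19 higher and 1 lower, or 15.8% against 34%. The medians were 0.01 in footprints, -0.10 in TE and 0.03 in RNA. RPS6, the ribosomal protein phosphorylated by S6 kinase, had 4672 footprints in the knockout-labelled library and 2421 in wild type (0.95, 0.88 to 1.02), with a TE change of 0.68. EIF4B, a further S6 kinase substrate, was called lower in RNA (-0.66) and higher in TE (0.77, 0.66 to 0.87). Of the translational repressors, EIF4EBP2 was called lower in footprints and TE, with 72 footprints in the knockout-labelled library and 191 in wild type and a TE change of -1.14 (-1.55 to -0.74), while EIF4EBP1 had 404 footprints in the knockout-labelled library and 283 in wild type and was not called. PRKCA, a kinase that needs mTORC2, had 35 footprints in the knockout-labelled library and 152 in wild type, and a TE change of -1.75 (-2.34 to -1.16). ULK1, the autophagy kinase that mTORC1 inhibits, and GSK3A, a substrate of AKT, were called lower in footprints and TE, with TE changes of -1.22 and -0.79. GSK3B and LPIN1 were called higher in RNA, at 0.79 and 0.72.

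TOP mRNAs, which begin with a pyrimidine tract and whose translation is known to depend on mTORC1, were followed in 15 genes that do not encode ribosomal proteins. In TE 6 of 15 were called higher and 0 lower, or 40% against 29.6% of all genes called in either direction and 15.7% called higher. Their median TE change was 0.50, beside 0.03 over all genes, with medians of -0.11 in RNA and 0.24 in footprints. In TE 14 of 15 were above 0, the exception being PABPC1 at -0.16, where 47.9% of all genes were below 0. The elongation factor EEF2 had 10853 footprints in the knockout-labelled library and 5631 in wild type, and a TE change of 0.95 (0.90 to 1.01). EEF1G, EEF1D and EEF1A1 were also called higher in TE, at 0.98, 1.01 and 0.77. In footprints 4 were called higher, EEF2, EEF1G, EIF4A2 and EEF1A1, and 0 lower, or 26.7% against 39.1% of all genes called in either direction and 19% called higher. In RNA 4 of the 15 were called lower (NPM1, HNRNPA1, EEF1D and EIF3E) and 0 higher, or 26.7% against 34% of all genes called in either direction and 17.8% called lower.

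**Figure D5:**
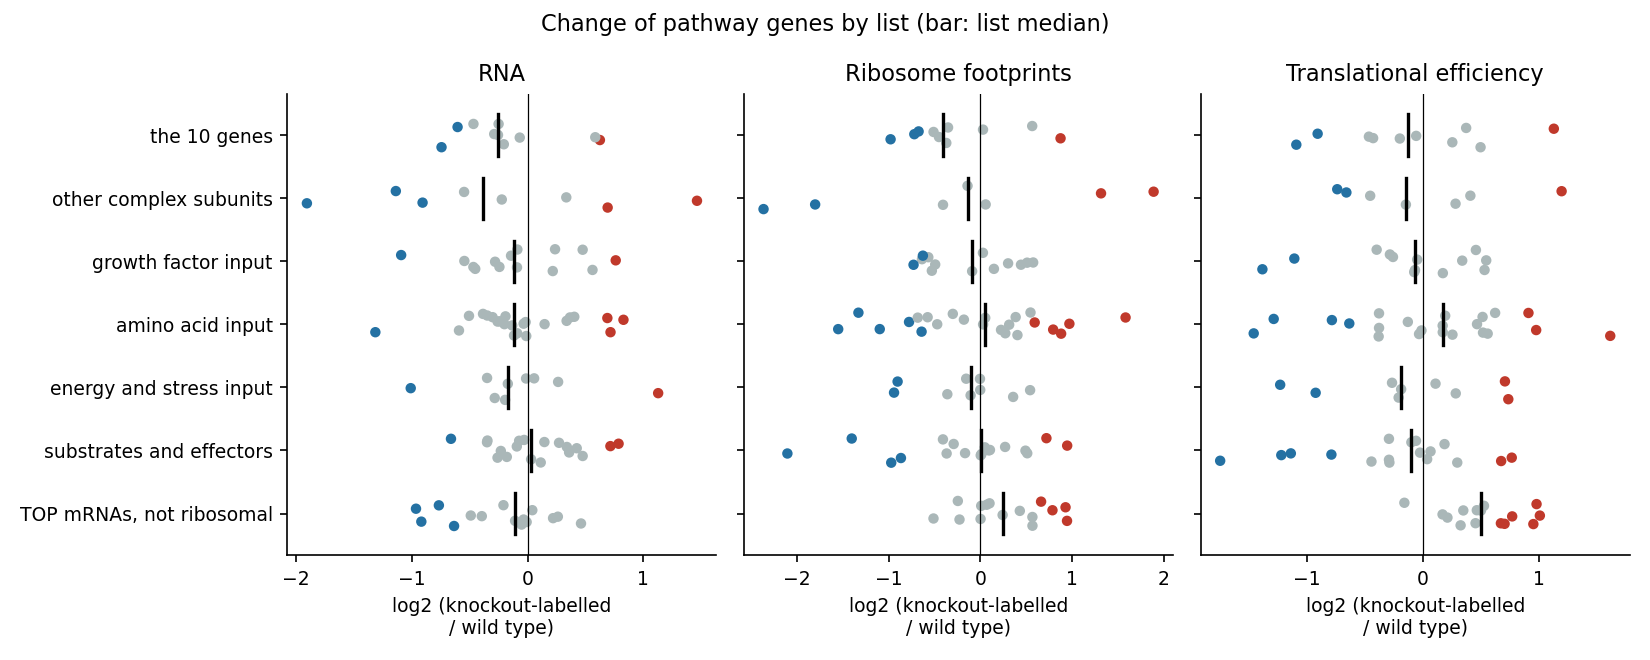
Log2 changes of the 10 genes and of the other pathway lists in RNA, footprints and translational efficiency, 1 point per gene measured (red called higher, blue called lower, grey neither) with the list median as a bar. The TOP mRNA list has its TE median at 0.50, and the other lists have TE medians between -0.19 and 0.17.

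Genes with the pattern nearest to each member called in TE were sought by Euclidean distance over the 4 libraries of log2 scaled CPM centred on the gene's mean, among 9597 other genes. For MTOR they were GPAM at a distance of 0.059, RIN2 at 0.081 and MAN2A1 at 0.103. For TSC2 they were BBS4 (0.067), TBC1D2 (0.103) and HOMER3 (0.114), and for RPS6KB1 they were SYNJ2 (0.077), AGAP1 (0.103) and TBC1D5 (0.115). With 4 libraries these distances describe a match of level ratios and nothing else.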

How the data were processed

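Groups were taken from the library titles. Per the labels' protocols, ribosome footprints were cut from a gel at 18 to 34 nt and the RNA fragments at 18 to 50 nt. Linkers carried random identifiers of 4 and 5 nt, and PCR ran over 15 cycles. Tools listed in the submitters' processing notes are HISAT2 2.1.0, Bowtie 1.1.2 and cutadapt 1.10, with build GRCh38. Their roles, the annotation, the transcript region counted, the use of strand and identifiers, and the handling of multiply mapping reads are not stated. The authors deposited raw whole-number counts for each gene symbol beside the name of 1 transcript. Of 19192 listed transcripts, 19176 were found in GENCODE release 29.

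Libraries of 1 kind were scaled by TMM in edgeR 4.0.16 under R 4.3.3. Intervals and ratios were computed with SciPy 1.17.1, pandas 2.3.3 and NumPy 2.4.6 in Python 3.11.15. Changes used a prior count of 0.5. RNA and footprint intervals are exact conditional (Clopper-Pearson), those of TE and of ratios come from the sum of reciprocal counts, and those of levels are exact Poisson, all at 95%. With 1 library per group no degrees of freedom remain for a test. The scripts were tested on simulated counts drawn with counting error alone, which cannot test the intervals for spread between cultures or for PCR copies. A count of 0 allows up to 3 counts, or 0.540 to 0.794 CPM. Windows of 25 bases were compared with all GENCODE transcripts.

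Members, lists and thresholds were chosen with earlier results of these data known. Named genes were the 10 members, IGF2BP1, 8 regulators named whatever their values (among them DEPTOR, AKT1S1, MAPKAP1, PDPK1, RPS6KB2 and EIF4EBP1, the others not being reported here), up to 4 called genes per list and quantity ranked by the interval bound nearest to no change, and the 3 nearest genes of MTOR and of each member called in TE. TTI1, RRAGA, MIOS, PABPC1, EPCAM, KRT18, CDH5, VWF, NTHL1, PKD1 and the markers at 0 fall outside this rule and were named after their values were seen. Alternatives were DESeq2 1.42.0 size factors, library totals, TMM without 12 abundant genes, read minimums of 1, 20 and 200, a 2-fold limit, a prior of 5 and other lengths. SESN3, STRADA and protein sequences were not analysed here.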

Additional observations from a re-analysis of the deposited data

How the results depend on the processing

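No paired analysis was possible because each group has 1 library and the labels carry no replicate numbers, and no library could be left out. All 120 alternative values of the member changes (other scalings, prior of 5) stayed inside their counting intervals, the largest shift being 0.062 (RPS6KB1 footprints, prior of 5). The scalings hardly differed, with a largest shift of 0.019 (TSC1 RNA, library totals). Such small shifts could not leave the intervals, so this is a weak check. All 12 ratios of gene pairs also stayed within counting error with a prior of 5. The RPS6KB1 to RPS6KB2 footprint ratio moved most, from 1.05 to 0.63 in log2. Its interval is wide (-0.21 to 2.30), with 7 RPS6KB2 footprints in the knockout-labelled library. The TE values within a genotype are set against the median gene of the same libraries, so scaling cancels in them and the alternative scaling tests nothing. Scaling by library totals gave 2 members called higher in RNA, TSC1 and TSC2. At a 2-fold limit 0 members were called in RNA and 0 in footprints in either direction, and 1 was called lower in TE, TSC2, while MTOR was still called higher there. A minimum of 200 reads also left 1 called lower in TE, since RPS6KB1 and MLST8 were then under the minimum. For the same reason it left 2 called lower in footprints, AKT1 and RICTOR, without RPS6KB1. For the 82 other pathway genes, a 2-fold limit gave 2 higher and 5 lower of 73 measured in RNA. It gave 3 higher and 7 lower of 70 in footprints, and 2 higher and 8 lower of 68 in TE. At that limit 14.7% of all genes were called in RNA, 18.9% in footprints and 12.7% in TE. A minimum of 200 reads gave 7 higher and 3 lower of 60 in RNA, and 7 higher and 5 lower of 42 in footprints. In TE it gave 5 higher and 5 lower of 39. Of all genes at that minimum, 29.6% were called in RNA, 34.2% in footprints and 22.9% in TE. Lower calls did not outnumber higher calls in footprints there. With coding length for both kinds, the highest RNA level per length over the lowest among the 10 genes was 27.9 in knockout-labelled RNA and 46.7 in wild-type RNA, against 14.4 and 30.1 by transcript length, so the order in RNA rests on which region was counted. Depth limits RPS6KB1 most, with 48 footprints in the knockout-labelled library.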
